A study of Mus musculus with 8 samples.

Results

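Tenascins, thrombospondins, periostin, fibronectin and SPARC-like 1 are secreted proteins that cells place around themselves and bind again through surface receptors. The genes described here were Tnc, Tnn, Postn, Fn1, Thbs1, Thbs2, Thbs3, Thbs4 and Sparcl1, 9 of the 12148 genes in the deposited table, chosen by name and all measured. Dental pulp (DP), the soft tissue inside a tooth, was taken from the first molars (M1s) of C57BL/6J mice at postnatal day (P) 7, with the left and right M1 of a sample combined. The 4 control samples carried Osterix-Cre, a Cre recombinase driven by the Osterix promoter in the mesenchyme that gives rise to odontoblasts and osteoblasts. The 4 mutant samples, Tgfbr2cko, carried Osterix-Cre and floxed Tgfbr2, so the transgene was present in both genotypes. The pulp also holds vessels, immune cells and nerve fibers in which this Cre is not meant to act. The control libraries are called 49, 50, 51 and 52 and the mutant libraries 53, 54, 55 and 56, after the numbers in their titles. Values are log2 CPM, the read count of a gene scaled to a common library size, and 1 unit is a doubling.

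These proteins are called matricellular where they act more on cells than on the strength of the matrix. Tenascins share fibronectin type III repeats and modify how cells hold on to fibronectin. Fibronectin itself is built into fibers by integrins, and periostin ties fibronectin and tenascin-C to collagen. Thrombospondins 1 and 2 form trimers and hold back vessel growth, and thrombospondin 1 can also release TGF-β from its latent form. Thrombospondins 3 and 4 form pentamers without that activity. In teeth, tenascin-C and fibronectin are known from dental mesenchyme, and periostin from the periodontal ligament. Several of these genes are known to respond to TGF-β, whose signal passes through the receptor encoded by Tgfbr2.

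The libraries held 8682872 to 13539670 reads on the listed genes, so a single read was worth 0.0739 to 0.115 CPM. Tgfbr2, the gene targeted by the cross, was measured at 7.16, 7.62, 7.64 and 7.52 log2 CPM in control libraries 49 to 52 and at 7.02, 7.00, 7.16 and 7.61 in mutant libraries 53 to 56. Mutant libraries 55 and 56 lay within the control range, 55 just above the lowest control and 56 near the top, and the difference of -0.29 ± 0.17 (log2, SE, n = 4 and 4) did not pass the test (limma adjusted p = 0.79). The values count the whole gene, not the floxed part alone. Enamel was uneven among the samples: Amelx and Ambn, which encode enamel matrix proteins made by ameloblasts outside the pulp, took 18.5% of the reads in library 56 and 0.326% to 2.74% in the others. The Tgfbr2 values above do not check the labels of libraries 55 and 56, which are called mutant below as labelled Tgfbr2cko. Single genes of library 56 lay on either side and do not check its label. Klk4 was 5.39 log2 CPM there, 4.20 to 5.22 in the other mutants and 7.26 to 7.78 in the controls. Ctss was 6.73 there, 7.62 to 8.02 in the other mutants and 6.19 to 6.83 in the controls. Both genes were picked after their values were seen. For each member and each altered gene of the related lists, the difference without library 56 is given too. By the rule of the study, altered genes were those past 1.5-fold whose p before adjustment was below 0.05. That rule called 5.77% of all genes, with 2.12% higher and 3.65% lower in Tgfbr2cko (2.49% and 2.81% without library 56). Of the altered genes 63.2% were lower, against 52.95% without library 56. After adjustment over all genes, 0.947% passed 0.05, and for 5.27% the libraries of the genotypes did not overlap.

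RefSeq promoters on GRCm38.p6 were used for 5 of the 9 genes, namely Tnc, Postn, Thbs2, Thbs3 and Thbs4. The 250 bases before the start are printed for Tnc, the gene with the highest level of the 9, and for Thbs2, whose call turned on library 56. Capitals mark CAGAC or its reverse complement GTCTG, the short element to which SMAD proteins, the carriers of the TGF-β signal, are known to bind, and TATAAA on the gene's strand. No marked stretches overlap. The Tnc window is chr4:64047016-64047265 and the Thbs2 window chr17:14694263-14694512, both on the minus strand and read 5′ to 3′.
Tnc: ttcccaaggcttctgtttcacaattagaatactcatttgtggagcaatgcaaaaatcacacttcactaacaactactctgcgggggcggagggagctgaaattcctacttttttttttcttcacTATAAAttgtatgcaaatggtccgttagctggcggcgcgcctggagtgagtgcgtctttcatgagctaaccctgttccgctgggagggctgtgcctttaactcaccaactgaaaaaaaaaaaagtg
Thbs2: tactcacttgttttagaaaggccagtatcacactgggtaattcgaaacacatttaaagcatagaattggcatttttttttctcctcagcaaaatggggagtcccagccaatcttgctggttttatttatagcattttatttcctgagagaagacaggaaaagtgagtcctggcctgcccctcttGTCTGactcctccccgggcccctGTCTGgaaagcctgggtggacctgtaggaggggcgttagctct
CAGAC or GTCTG occurred 2 times before Thbs2, 2 times before Thbs4, and not at all before Thbs3. Tnc and Postn each have a pair of annotated starts, of which 1 window held the element and the other did not. Among all 32851 windows of this length 42.2% held it, so its presence is common and a match is a description only. TATAAA stood before both Tnc starts and 1 Postn start, and 7.59% of all windows held it. The 2 Tnc windows overlap and share the same TATAAA, which begins at -126 from 1 start and -205 from the other. It is therefore a single site. The AP-1 letters TGACTCA or TGAGTCA were in none of the windows of these 5 genes and in 4.46% of all.

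Of the 9 genes, only Tnn was altered, and it rose. With 1 of 9 higher and 0 lower, and 2.12% and 3.65% of all genes called in those directions, the count amounts to a single gene. None of the 9 passed 0.05 after adjustment, and in none were the genotypes free of overlap. The median difference over the 9 genes was 0.04 on the log2 scale and that over all genes -0.01. Library by library, Tnc, Fn1 and Postn averaged lower in Tgfbr2cko by less than the SD within a genotype, Thbs1 and Thbs2 leaned in opposite directions, and Sparcl1 hardly differed.

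**Figure D1:**
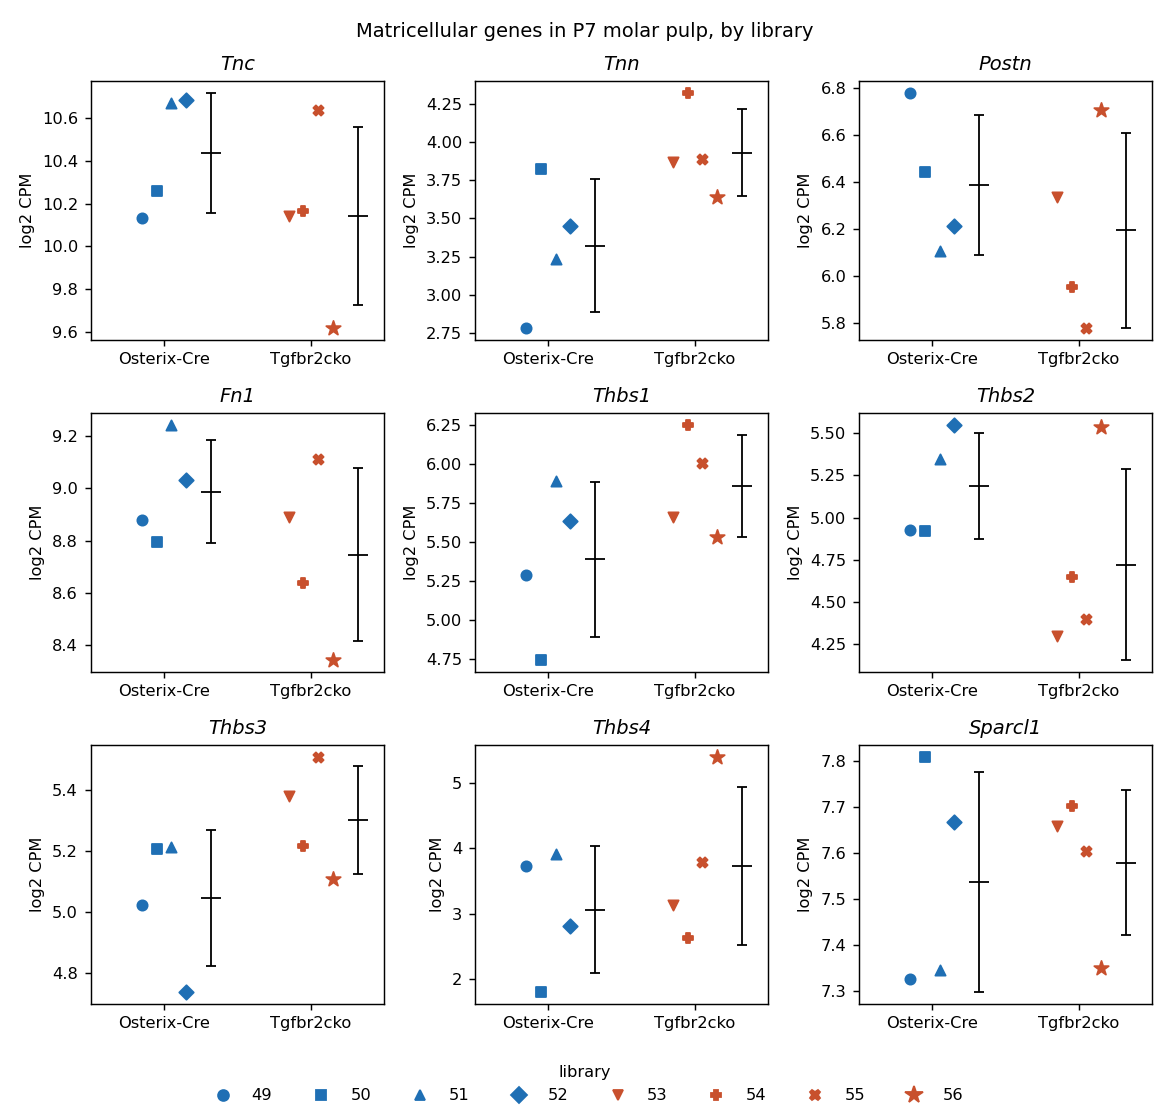
Normalized expression (log2 CPM, a separate axis range in each panel) of the 9 genes in the 4 Osterix-Cre libraries (blue) and the 4 Tgfbr2cko libraries (orange), with the mean ± SD in black. Tnn was higher in 3 of 4 mutant libraries than in every control, and library 56 (star) held the highest Thbs4 and the lowest Tnc and Fn1 values.

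Tnn encodes tenascin-N, also called tenascin-W, a tenascin of developing bone and of stem cell niches. Its log2 CPM was 2.78, 3.82, 3.23 and 3.45 in control libraries 49 to 52, and 3.87, 4.32, 3.89 and 3.64 in mutant libraries 53 to 56. Every mutant value except that of library 56 lay above every control, and library 56 lay below control library 50 alone. The means were 3.32 ± 0.43 and 3.93 ± 0.29 (SD, n = 4 each), a 1.52-fold rise with a 95% interval of 1.05 to 2.21. The limma p was 0.0291 and the adjusted p 0.458, and the two-sided exact permutation p over the 70 arrangements of the libraries was 0.0571, where the smallest possible is 0.0286. The gene was counted on only 67 to 245 reads a library. Without library 56 the difference was 0.70, a fold of 1.63. Its call was lost without library 49 (difference 0.43), 51 (0.58) or 54 (0.48), where the limma p rose above the threshold and the fold fell under 1.5. In bulk pulp, a change in RNA per cell and a change in the number of cells that make it cannot be told apart. The gene lies at chr1:160085029-160153580 on the minus strand (ENSMUSG00000026725.17), and all gene positions are on GRCm38 from GENCODE M21.

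Tnc encodes tenascin-C, the founding tenascin, which loosens the attachment of cells to fibronectin. It had the highest level of the 9 genes, with 10032 to 16809 reads a library. Its log2 CPM was 10.13, 10.26, 10.67 and 10.68 in the controls, compared with 10.14, 10.17, 10.64 and 9.62 in Tgfbr2cko. The first 3 mutant values fell inside the control range, and library 56 lay below all. The difference was -0.29 ± 0.24 (log2, SE) with a 95% interval of -0.80 to 0.21 (limma adjusted p = 0.908). When each library was left out in turn it ran from -0.46 without library 55 to -0.12 without library 56. Tnn and Tnc did not lean the same way, although the difference between the 2 genes was not tested. In log2 CPM, Tnn minus Tnc was -7.35, -6.44, -7.44 and -7.24 among the controls and -6.28, -5.85, -6.75 and -5.98 in the mutants. A shift of this value between libraries does not depend on gene length, and the overlap came from control library 50 alone, which lay above mutant library 55. This pair and the others below were chosen after their values were seen. Tnc lies at chr4:63959785-64047015 on the minus strand.

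Fn1 encodes fibronectin, the fiber-forming protein on which cells, collagens and tenascins are laid. Its log2 CPM was 8.88, 8.79, 9.24 and 9.03 in the controls against 8.89, 8.64, 9.11 and 8.34 in the mutants. Libraries 54 and 56 lay below all controls and the others among them. The difference was -0.24 ± 0.19 (log2, SE), with a 95% interval of -0.64 to 0.16 (limma adjusted p = 0.898), and ran from -0.36 without library 55 to -0.11 without library 56. Fn1 followed Tnc from library to library. Tnc minus Fn1 was 1.25, 1.47, 1.43 and 1.65 in the controls, compared with 1.25, 1.53, 1.52 and 1.28 in the mutants, a span shared by both genotypes. Pearson's r of the 2 genes was 0.92 over the 8 libraries, which share their depth scaling and, in library 56, the enamel reads. Fn1 lies at chr1:71585520-71653200 on the minus strand.

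Postn encodes periostin, a fasciclin-domain protein that helps lysyl oxidase reach collagen. Levels of 6.78, 6.44, 6.11 and 6.21 log2 CPM were measured in control libraries 49 to 52, and 6.34, 5.95, 5.78 and 6.71 in mutant libraries 53 to 56. Libraries 54 and 55 lay below all controls and library 56 was near the top of the control range. The difference was -0.19 ± 0.21 (log2, SE), with a 95% interval of -0.65 to 0.26 (limma adjusted p = 0.969), and -0.36 without library 56 (adjusted p = 0.612). It was -0.061 without library 49, -0.11 without 54 and -0.054 without 55. Postn is also strong in the periodontal ligament and dental follicle. The 3 measured of 5 markers of those tissues (Aspn, Mkx and Pthlh) summed to 21.2 to 43.0 CPM in the controls and 24.6 to 55.2 in Tgfbr2cko, and 0 of the 3 were altered. The 55.2 was library 56, the other mutants reaching 31.8, and the part of these markers in the Postn value was not tested. Scx and Tnmd were not analysed here. Postn lies at chr3:54361109-54391037 on the plus strand.

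**Figure D2:**
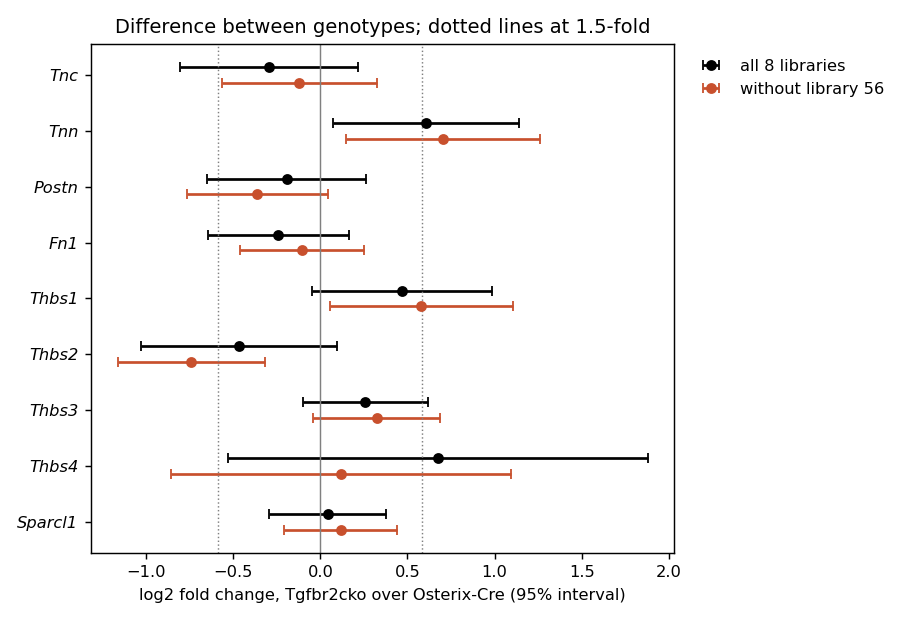
Log2 fold change of each gene, Tgfbr2cko over Osterix-Cre, with its 95% interval from limma for all 8 libraries (black) and without library 56 (orange). The interval of Tnn (1.05- to 2.21-fold with all libraries) lay above 0 in both fits, those of Thbs1 and Thbs2 excluded 0 only without library 56, and that of Thbs4 was the widest.

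Thbs1 and Thbs2 encode the trimeric thrombospondins, both of which bind CD36 and CD47 and restrain vessel growth. Thbs1 was measured at 5.29, 4.74, 5.89 and 5.63 log2 CPM among the controls and 5.66, 6.25, 6.00 and 5.53 in the mutants. Libraries 54 and 55 lay above all controls and the other mutants inside their range. The difference was 0.47 ± 0.24 (log2, SE), a fold of 1.39 with a 95% interval of 0.968 to 1.98 (limma adjusted p = 0.667). Leaving out control library 51 brought it past the rule at a difference of 0.64 (limma adjusted p = 0.477). Without library 56 the difference was 0.58, a fold of 1.495 that fell just short of the rule, and without library 50 it was 0.26. Thbs1 is also abundant in platelets. Of the 6 platelet markers, Pf4, Itga2b and Gp1bb were measured. Pf4 fell by 1.19 (log2, limma adjusted p = 0.159) and by 0.91 without library 56, and the other 2 were not altered. The 3 together ranged from 105 to 204 CPM in the controls and 40.2 to 143 in Tgfbr2cko. Most of that sum was Pf4, with a control mean of 7.23 log2 CPM against 2.51 for Itga2b and 1.46 for Gp1bb. The part of these markers in the Thbs1 value was not tested.

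Thbs2 was measured at 4.93, 4.92, 5.35 and 5.55 log2 CPM in the controls against 4.30, 4.65, 4.39 and 5.54 in the mutants. Libraries 53, 54 and 55 lay below every control, while library 56 stood next to the highest control. The difference was -0.47 ± 0.26 (log2, SE), a fold of 0.723 with a 95% interval of 0.490 to 1.07, and did not pass (limma adjusted p = 0.737). Without library 56 it was -0.74 ± 0.19 and the gene was altered by the rule, with a limma adjusted p of 0.111. Weighting each library by how closely its values followed its genotype gave library 56 a weight of 0.349 and a Thbs2 difference of -0.66 (limma adjusted p = 0.140). Adding the mean level of Amelx, Ambn and Enam as a covariate made the difference -0.65 (limma adjusted p = 0.392). Both passed the rule, but both act largely on library 56 and are not separate from leaving it out. Library 56 differed from the other mutants in both its enamel reads and its Tgfbr2 level, and which of these its Thbs2 value goes with cannot be told apart. Thbs2 was counted on 174 to 630 reads and lies at chr17:14665500-14694235 on the minus strand. Thbs1, on 258 to 933 reads, lies at chr2:118111876-118127133 on the plus strand.

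Set against each other within a library, the 2 genes separated the genotypes except in library 56. Thbs1 minus Thbs2 was 0.36, -0.18, 0.54 and 0.08 log2 units in the controls, 1.36, 1.60 and 1.61 in mutant libraries 53 to 55, and -0.01 in library 56. The 3 mutants thus lay above the whole control range, and library 56 inside it. The pair was chosen after Thbs1 was seen to lean up and Thbs2 down, so some separation was built in, and no test was run on it.

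**Figure D3:**
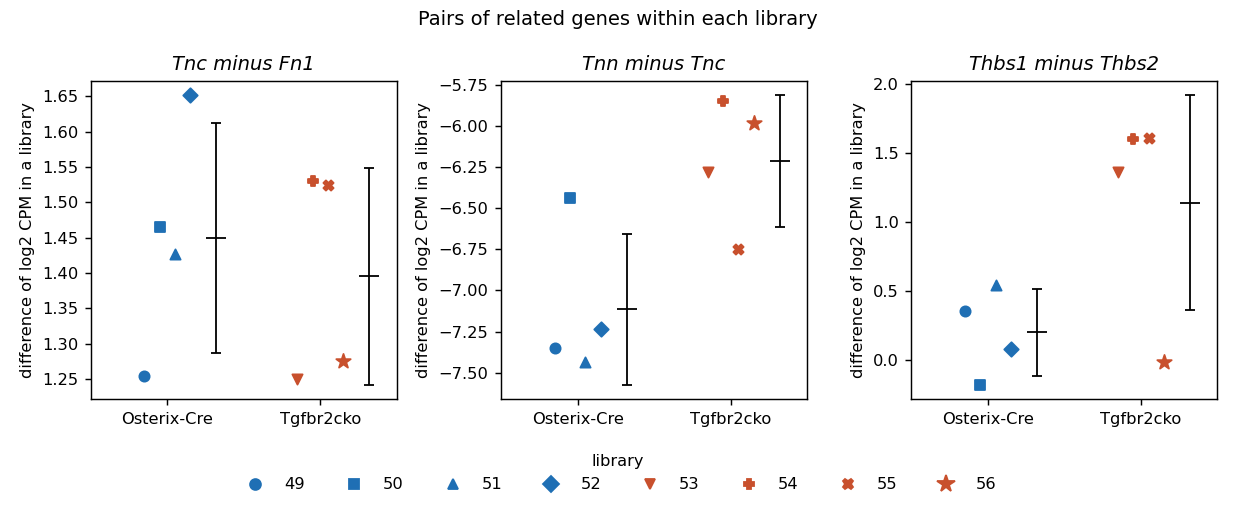
Difference of log2 CPM between 2 genes within each library, with the mean ± SD per genotype in black. Tnc minus Fn1 spanned 1.25 to 1.65 over all libraries, Tnn minus Tnc was mostly higher in Tgfbr2cko, and Thbs1 minus Thbs2 was 1.36 to 1.61 in 3 mutant libraries and -0.01 in library 56 (star).

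Thbs3 and Thbs4 encode pentameric thrombospondins, of cartilage and bone and of tendon, muscle and nerve. Thbs3 was measured at 5.02, 5.21, 5.21 and 4.74 log2 CPM in the controls, compared with 5.38, 5.22, 5.51 and 5.11 in the mutants. Again 3 mutants lay above all controls, library 54 barely, and library 56 did not. The difference was 0.26 ± 0.17 (log2, SE), with a 95% interval of -0.10 to 0.62 (limma adjusted p = 0.828), and ran from 0.16 without library 52 to 0.32 without library 56. Of its exon length 6.59% overlaps Mtx1 on the other strand, and whether counting used strand is not given in the sources used here, so some reads may belong to Mtx1. Thbs3 lies at chr3:89215180-89226837 on the plus strand.

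Thbs4 varied more within a genotype than nearly any gene in the table. Its log2 CPM was 3.73, 1.79, 3.92 and 2.81 among the controls and 3.13, 2.62, 3.79 and 5.40 in the mutants, from 33 reads in library 50 to 573 in library 56. Library 56 lay above all others and the remaining mutants inside the control range. The SD within a genotype was 1.10, at the 99.2 percentile of all genes. The difference was 0.67 ± 0.56 (log2, SE), with a 95% interval of -0.53 to 1.88 (limma adjusted p = 0.911), and 0.12 without library 56. With the enamel genes as a covariate it was 0.03. Leaving out control library 50, the lowest, gave 0.25, and leaving out library 54 gave 1.05, the ends of the range over single omissions being 0.12 and 1.05. Thbs4 lies at chr13:92751590-92794818 on the minus strand.

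Sparcl1 encodes SPARC-like 1, also called hevin, an anti-adhesive protein of vessels and of synapses. Its log2 CPM was 7.33, 7.81, 7.35 and 7.67 in the controls against 7.66, 7.70, 7.60 and 7.35 in the mutants, all mutants lying inside the control range. The difference was 0.04 ± 0.15 (log2, SE) and the 95% interval, 0.816- to 1.30-fold, did not reach 1.5-fold in either direction (limma adjusted p = 0.998). Without library 56 the difference was 0.12. The sign turned without control library 49 (-0.028) or 51 (-0.022). Sparcl1 is also known in vessel walls, for which markers are given here. The 6 endothelial markers summed to 237 to 331 CPM in the controls and 187 to 239 in Tgfbr2cko, with 2 lower (Tek and Cldn5). The 5 measured of 7 mural markers summed to 405 to 539 and 293 to 380, with 2 lower (Rgs5 and Pdgfrb). Without library 56 the 2 lower mural genes were Rgs5 and Acta2, and the endothelial calls were the same. Their part in the Sparcl1 value was not tested. Sparcl1 lies at chr5:104079111-104113733 on the minus strand.

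Divided by exon length, the levels of the 9 genes spanned much of the expressed range. In the controls, the mean log2 CPM per kb was 7.48 for Tnc, 5.98 for Sparcl1, 5.44 for Fn1, 3.27 for Postn, 2.79 for Thbs1, 2.77 for Thbs3, 2.38 for Thbs2, 1.34 for Thbs4 and 0.78 for Tnn. Tnc stood at the 98.0 percentile of all genes, and Thbs4 and Tnn at the 23.6 and 15.3 percentiles. On this length Tnc was apart from Sparcl1, Sparcl1 from Fn1 and Fn1 from Postn, in both genotypes. From Postn downward the neighbors overlapped in both genotypes, except that Thbs3 was apart from Thbs2 in Tgfbr2cko. With the longest transcript in place of all exons, Sparcl1 read 6.07, Fn1 5.93, Postn 4.002 and Thbs3 3.03. Sparcl1 and Fn1 then overlapped in both genotypes, and in the controls Postn was apart from Thbs3, its next neighbor on that length, and Thbs2 from Thbs4. Which neighbors are apart therefore depends on the length used, except that Tnc stayed above Sparcl1 and Fn1 above Postn in both genotypes on both lengths.

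**Figure D4:**
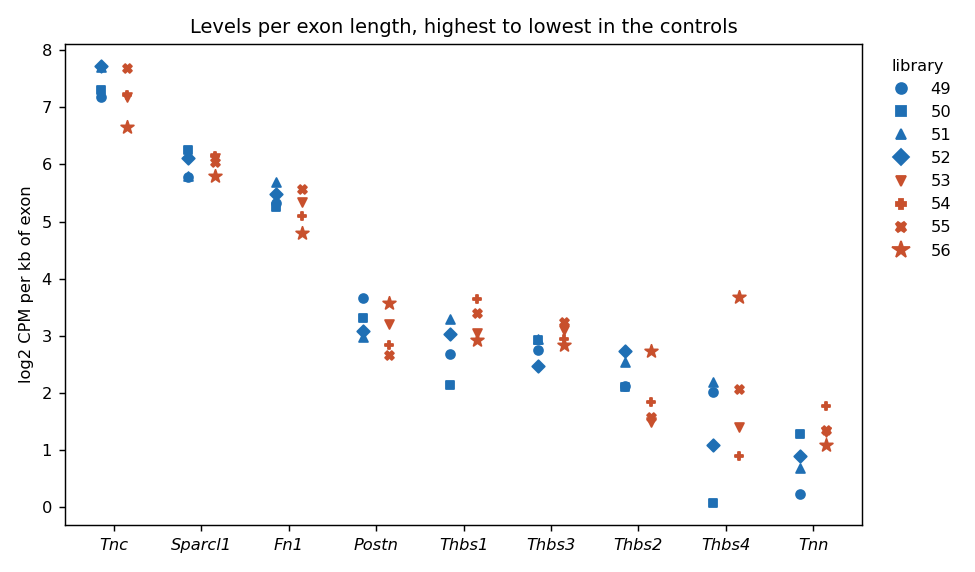
Level per exon length (log2 CPM per kb) of each gene in every library, Osterix-Cre in blue and Tgfbr2cko in orange, ordered by the control mean. Tnc (mean 7.48 in the controls) lay above the rest in both genotypes, and the ranges of Postn and the thrombospondins ran into each other.

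Among other genes of the matricellular families, 11 of the 20 listed were measured, 2 rose and 0 fell. Ccn5 (Wisp2), a CCN protein that lacks the carboxy-terminal domain of its family, rose by 1.78 ± 0.30 (log2, SE, limma adjusted p = 0.0116), and by 2.06 without library 56. It was measured at 3.79, 3.88, 4.36 and 4.49 log2 CPM in the controls, compared with 5.57, 6.36, 6.63 and 5.10 in the mutants, with no overlap. Smoc2, a SPARC-related modular protein, rose by 0.95 ± 0.22 (limma adjusted p = 0.0713), from 6.57, 5.64, 5.64 and 5.60 to 6.82, 6.43, 6.91 and 7.09. Control library 49 was the sole control in the mutant range, and without library 56 the rise was 0.86. Sparc itself differed by -0.13 ± 0.45, Ccn2 by -0.33 ± 0.25 and Ccn1 by 0.34 ± 0.24, and none of the 3 passed. The median of the 11 differences was 0.08.

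Of 21 receptors known to bind these proteins, 19 were measured, 0 rose and 2 fell. Cd36, a scavenger receptor that binds thrombospondins 1 and 2, fell by 1.18 ± 0.27 (log2, SE, limma adjusted p = 0.0632). The values were 4.52, 4.79, 4.55 and 4.52 among the controls and 4.31, 3.10, 2.94 and 3.31 in the mutants, with no overlap, and the difference without library 56 was -1.14. Cd36 is itself made by capillary endothelium and macrophages. Of 7 macrophage markers Cd68 and Mrc1 were lower and Ctss higher, and they summed to 736 to 1083 CPM in the controls and 505 to 1094 in Tgfbr2cko. The 505 was library 56, the other mutants starting at 830, and without that library Cd68 was not altered. Their part, and that of the lower endothelial markers above, was not tested. Itga8, an integrin chain that binds fibronectin and tenascins, fell by 0.80 ± 0.37 (limma adjusted p = 0.589), from 3.44, 4.47, 4.63 and 4.04 to 4.24, 3.78, 2.87 and 2.52. Its groups overlapped, and its call was lost without library 50, 51, 52, 55 or 56 (-0.52 without 56), without the intensity trend, with the filter on low levels and with the enamel covariate. Cd47 differed by -0.20 ± 0.17 and Itgb1, the common chain of the fibronectin receptors, by 0.06 ± 0.15, neither past the test. The median over the 19 receptors was -0.0038.

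The fibril components and enzymes that fibronectin and periostin bind, 9 of 9 measured, had 0 higher and 3 lower, with a median of -0.54 against -0.01 over all genes. Lox, the lysyl oxidase that crosslinks collagen, fell by 1.13 ± 0.25 (log2, SE, limma adjusted p = 0.0546), from 8.18, 8.07, 8.56 and 9.25 log2 CPM to 7.21, 7.67, 7.68 and 6.99. Col5a1, a chain of the collagen that sets fibril width, fell by 0.66 ± 0.15 (adjusted p = 0.0602), from 9.53, 9.21, 9.54 and 9.32 to 8.80, 8.77, 8.72 and 8.65. Col1a2, a chain of type I collagen, fell by 1.22 ± 0.43 (adjusted p = 0.316), from 14.47, 13.83, 14.47 and 15.09 to 12.93, 13.41, 13.68 and 12.98. In all 3 the genotypes did not overlap, and without library 56 the differences were -0.995 for Lox, -0.63 for Col5a1 and -1.13 for Col1a2. Quantile normalization ended the call of Col1a2. Bmp1, the protease that processes procollagen and activates Lox, differed by -0.54 ± 0.20 and fell short of 1.5-fold. These chains are made by odontoblasts and osteoblasts as well as pulp fibroblasts. The 6 odontoblast markers summed to 8774 to 22280 CPM in the controls and 6267 to 13385 in Tgfbr2cko, with Nes and Bglap lower and Cd44 higher. Most of that sum was Dspp (control mean 13.29 log2 CPM), which was not altered (limma adjusted p = 0.794). The 5 osteoblast markers summed to 4698 to 5795 and 3122 to 3949, with Ibsp and Ifitm5 higher and Bglap, which is on both lists, lower. Without library 56, Nes stayed lower and Ibsp higher, while Bglap, Cd44 and Ifitm5 were not altered. Their part in these values was not tested.

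The 5 measured of 6 genes named for fibronectin type III domains (Fndc) had 0 altered and a median of -0.17. Fndc3b differed by -0.51 ± 0.18 (log2, SE, limma adjusted p = 0.338) without overlap of the genotypes, and fell short of 1.5-fold. Of 10 genes that TGF-β is known to induce, 9 were measured and 1 was altered. Skil, which encodes the SMAD corepressor SnoN, fell by 0.71 ± 0.23 (log2, SE, limma adjusted p = 0.253), from 5.88, 5.62, 5.79 and 6.11 log2 CPM to 4.74, 4.60, 5.62 and 5.57, where library 55 came within rounding of control library 50. The call of Skil was lost without library 53 or 54, and without library 56 the difference was -0.86. The median of the list was -0.29. Ccn2 and Tgfbi stand on both this list and the matricellular one. Without library 56, Ecm1, an extracellular matrix glycoprotein, was also altered (0.63, limma adjusted p = 0.107), as was Ccn2, a TGF-β-induced CCN protein (-0.64, limma adjusted p = 0.0596), and Itga8 no longer was. The other 7 named genes of the lists stayed altered without that library.

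Markers of the labelled tissue were present. Msx1, Pax9, Lhx8, Pdgfra and Vim, markers of dental mesenchyme, summed to 2968 to 3610 CPM in the controls and 1951 to 3857 in Tgfbr2cko, with Lhx8 lower, also without library 56. The 1951 was library 56, the other mutants starting at 3303. The 2 measured of 6 Schwann cell markers summed to 17.3 to 24.4 CPM and 23.5 to 24.4, with 0 altered. The 8 enamel and dental epithelium markers summed to 4175 to 23389 CPM and 4438 to 195763, with Cdh1 higher and Klk4 lower. The 195763 was library 56 and the next mutant stood at 30248, and without library 56 Cdh1 was not altered while Klk4 and Mmp20 were lower. No measured marker was at 0 in any library, the lowest being 7 reads of a platelet marker.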

How the data were processed

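RNA of 8 pulp samples with RNA integrity numbers over 7 was amplified (SMART-seq HT, 1 ng), made into Nextera XT libraries and sequenced. Per the submitters' processing notes, the authors used fastp 0.21.0, HISAT2 2.1.0 and featureCounts of Subread 2.0.1 on GRCm38.p5, with GENCODE M14, a filter on low genes, and voom. The deposited values are log2 CPM with 0.5 added to each count. They returned whole reads for every value to within 3.61e-08. Symbols, exon lengths and positions came from GENCODE M21 (GRCm38), which named 12144 of the 12148 identifiers.

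The test was limma 3.58.1 (R 4.3.3) with an intensity trend on genotype, over all 8 libraries, adjusted by Benjamini-Hochberg over all genes, and was tested on simulated data. Where nothing says that samples were separate animals, p-values measure the spread between these samples. Each title also holds another number, which is 4 for both control libraries 49 and 50. It is 2 for mutant libraries 54 and 55, and 3 for mutant libraries 53 and 56. What this number stands for is not given, so samples counted apart in n = 4 may be related. Amplified reads are not independent molecules. The members and gene lists were chosen with earlier results of these data known. Genes named were the 9 members, Tgfbr2, each altered gene of the 5 related lists, the enamel genes and the genes most like each member. Of these, 1 gene like Tnc and 1 promoter are not reported here. Other genes, including the markers, were named after their values were seen. The cell type lists were endothelial, mural, macrophage, platelet, Schwann, odontoblast, dental mesenchyme, periodontal, enamel and osteoblast. Alternatives were no trend, library weights, voom weights, other scalings, a level filter, averaging libraries of equal title number, an enamel covariate and leaving out each library.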

Additional observations from a re-analysis of the deposited data

How the results depend on the processing

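Over 9 genes and 16 alternatives, 135 differences kept their direction and their side of the rule, 4 gained a call, 3 lost it and 2 turned sign. The number of altered members, 1, became 2 with library weights and with the enamel covariate, through Thbs2 (-0.66 and -0.65), 0 where 2-fold was required, and 0 where the adjusted p had to be below 0.05, and ran from 0 to 2 when each library was left out (0 without 49 or 54, 2 without 56). On leaving out each library, Tnn ran from 0.43 to 0.77, Thbs2 from -0.74 to -0.33, Thbs1 from 0.26 to 0.64 and Sparcl1 from -0.028 to 0.13, the turned signs being -0.028 without 49 and -0.022 without 51. Tnn kept its call in 13 of 16 alternatives, with adjusted p from 0.180 to 0.781. The altered genes numbered 256 where 2-fold was required and 115 by adjusted p. No scaling moved the median of all genes by more than 0.1. No paired analysis was possible because the genotypes share only 1 of the numbers in their titles, so that a block on it would set library 51 against 54 and 55 alone. Thbs4 (down to 33 reads in a library) and Tnn (down to 67) were counted on the fewest reads of the 9 genes.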

Other observations

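Over the 8 libraries, the genes whose levels ran most like each member, among 10312 genes with a mean log2 CPM of at least 3, are given as a description. All points share libraries, depth scaling and the enamel reads of library 56, and the highest of so many correlations is high by choice. Among the closest to Tnc were Rab13 (Pearson's r = 0.955) and Cflar (0.951). Closest to Fn1 were Lrp1 (0.975), itself on the receptor list, Utrn (0.953) and Dhx57 (0.946). Closest to Tnn were Dnaja4 (0.953), Arhgap32 (0.951) and Rtn4rl1 (0.948), and to Postn Oser1 (0.930), Zmiz1 (0.895) and Maf (0.881). Closest to Thbs1 were Nbeal1 (0.978), Dlx1 (0.973) and Helb (0.964), and to Thbs2 Plekhh1 (0.915), Rpgr (0.905) and Slc39a11 (0.901). Closest to Thbs3 were Usp24 (0.972), Kat2a (0.956) and Tmem131l (0.947), and to Thbs4 Atxn1 (0.932), Tenm2 (0.927) and Dst (0.924). Closest to Sparcl1 were Zfp870 (0.982), Atxn1l (0.979) and Blzf1 (0.954). Among the members themselves, r was 0.92 for Tnc with Fn1, 0.71 for Tnn with Sparcl1, -0.77 for Thbs2 with Thbs3 and -0.83 for Thbs4 with Sparcl1.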
